A study of Mus musculus with 24 samples.

Results

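On day 4 of optic vesicle (OV) organoid differentiation, cells that had switched on a green reporter of the eye-field gene Rax were compared with the cells of the same stage that had not. The comparison rests on 6 of the 24 RNA-seq libraries of the series, 3 GFP-positive and 3 GFP-negative, and takes in every gene and both directions of change. All libraries came from 1 mouse embryonic stem cell (mESC) line, Rx-GFP K/I EB5, in which GFP had been knocked into the Rax locus. The mESCs were aggregated at 4500 cells per well, given Matrigel at 2% on day 1, and 24 organoids were pooled for each sample before dissociation and sorting of live single cells by FACS. According to the labels the differentiation medium was GMEM with 1.5% knockout serum replacement, while the methods of the study name a growth factor-free chemically defined medium for the initial organoids. The study placed the gates so that cells with low GFP fell into the GFP-negative samples, so these hold some Rax-expressing cells by design. The study describes the triplicates as biological, and the whole series is a single reporter line.

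The eye field is the part of the anterior neural plate from which both optic vesicles arise. It is marked by a set of eye-field transcription factors (EFTFs), among them Rax, Pax6, Six3, Six6 and Lhx2, which act together with forebrain factors such as Otx2 and Hesx1. Pluripotent cells reach this state by losing their pluripotency factors and by not entering the primitive streak, from which mesoderm and endoderm form, while Wnt, FGF and Nodal signals favour streak and posterior neural fates over anterior neural ones.

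The deposited values are normalized counts per gene, meaning estimated read counts divided by a scaling factor for each library. They summed to between 42359014 and 45695739 per day 4 library. The GFP-positive libraries ranked genes alike, with Spearman correlations of 0.991 to 0.993 across genes, and the GFP-negative libraries did so at 0.979 to 0.992, the lower values all involving GFP-negative replicate 3. Between the gates the range was 0.965 to 0.976. Transcripts of mitochondrial genes made up 2.65% to 2.99% of the GFP-positive and 2.84% to 3.85% of the GFP-negative libraries. GFP-negative replicate 1 had the lowest summed levels of streak, endoderm and mesoderm genes in its group.

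Of 21005 genes tested, 69 (0.328%) were called higher and 763 (3.63%) lower in GFP-positive cells, where a called gene had to differ by more than 1.5 on the log2 scale at an adjusted p under 0.001 (limma, Benjamini-Hochberg). The difference is the mean of log2(normalized count + 1) in GFP-positive libraries minus that in GFP-negative libraries. Differences of the called genes had a median of 2.19 on the higher and -2.61 on the lower side. They exceeded 3 in absolute value for 7 higher and 254 lower genes, so most of the large differences lay on the lower side. The 3 libraries of each gate did not overlap for 69 of the 69 higher and 762 of the 763 lower genes. Over all genes tested 17.8% lay wholly higher and 20.5% wholly lower. The calls were made on these same libraries, so the lack of overlap among called genes describes the calls and adds no support to them. At an adjusted p under 0.05 with no threshold on the fold, 930 genes (4.43%) were higher and 2365 (11.3%) lower. The higher count of 930 was 603, 581 and 588 without GFP-positive replicate 1, 2 and 3 respectively, and 1695 without day 0 replicate 1. In bulk RNA of this kind, fewer cells that express a gene and less of its RNA per cell cannot be told apart. When the 6 day 4 libraries were fitted alone, 51 of the higher and 213 of the lower calls were kept, and 39 and 516 were kept in each of 6 fits that left out 1 day 4 library.

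**Figure D1:**
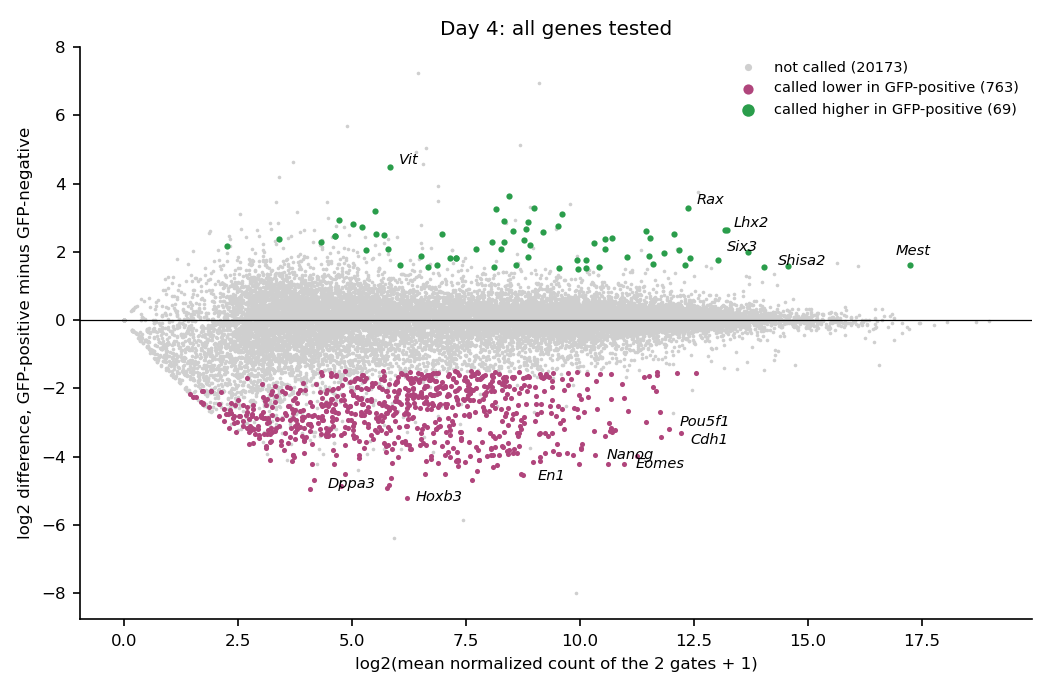
Each point is 1 of the 21005 genes tested, with the log2 of its mean normalized count over both gates on the horizontal axis and its log2 difference between the gates (GFP-positive minus GFP-negative) on the vertical axis. The 69 genes called higher (green) include several abundant transcripts, whereas the 763 called lower (magenta) reach -5.21 and are mostly of low to middle abundance, and grey points farther from 0 than the coloured ones did not pass the test.

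Rax itself, on chromosome 18, only describes the gate, because the cells were sorted on a reporter in its locus. Its normalized counts were 9967, 9609 and 9099.8 in the GFP-positive libraries against 960.0, 1018 and 946 in the GFP-negative libraries, a 9.81-fold ratio of the means. The GFP-negative samples thus held a clear Rax signal, and it was nearly the same in each of them.

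Of 7 EFTFs taken as a list, which leaves out Otx2 although the study counts it as an EFTF, 5 were called higher and 1 lower, with a median log2 difference of 2.04 against 0.01 over all genes tested. The call of Rax was fixed by the sort, and without it 4 of 6 were called higher, with a median of 1.93. With Otx2, which was not called, and without Rax the count was 4 of 7 and the median 1.82. Lhx2, a LIM homeodomain factor needed for the eye field to advance to an optic vesicle, had 16110.2, 16692 and 15182 normalized counts in GFP-positive cells and 2288, 3013 and 2431 in GFP-negative cells. Its log2 difference was 2.64 ± 0.30 (SE, n = 3 per gate, limma adjusted p = 1.14e-06). No GFP-negative library came near the GFP-positive range. Six3, a homeodomain repressor of Wnt genes in the anterior forebrain, was at 12441, 13425 and 12578 in GFP-positive and 4476, 4139 and 2847 in GFP-negative cells (1.77 ± 0.25, limma adjusted p = 2.13e-05). Pax6, the paired-box factor required for eye formation, was at 8939, 7774 and 8838 against 2029, 2609.7 and 2627 (1.82 ± 0.24, limma adjusted p = 9.59e-06). Both genes were separated without overlap, although the GFP-negative cells kept at least 2847 normalized counts of Six3.

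Six6, a relative of Six3 that acts in optic cup progenitors, was still scarce on day 4. Its 192, 245 and 196 normalized counts in GFP-positive cells stood against 45.8, 53.7 and 18.7 in GFP-negative cells (2.51 ± 0.46, limma adjusted p = 0.000391), and the call was lost without any single day 4 library except GFP-negative replicate 2, the difference then lying between 2.06 and 2.79. Nr2e1, an orphan nuclear receptor of neural stem cells, was at 249.9, 224 and 229 against 43.5, 74.4 and 54.8, with a difference of 2.04 that missed the call (limma adjusted p = 0.00652). Tbx3, a T-box factor that is part of the eye-field set but also of the pluripotency network, differed in the opposite direction. It was at 40.9, 87.5 and 91 in GFP-positive and 441, 554 and 669 in GFP-negative cells (-2.97 ± 0.39, limma adjusted p = 7.78e-06). Without Rax, the summed normalized counts of the 6 other EFTFs were 37114 to 38448 in GFP-positive and 8648 to 10444 in GFP-negative libraries. In the fit of the 6 day 4 libraries alone, Six6 and Tbx3 were no longer called.

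Among 16 forebrain regulators, 4 were called higher and none lower, with a median log2 difference of 1.17, and 9 were higher at an adjusted p under 0.05. Nr2f2, an orphan receptor used later in the dorsal optic vesicle, was at 2407, 2530.3 and 2609.8 normalized counts in GFP-positive and 428, 632 and 404 in GFP-negative libraries (2.39 ± 0.38, limma adjusted p = 8.84e-05). The gates did not overlap for this gene. Emx1, a dorsal telencephalic homeobox gene, was low in both gates, at 84.3 to 91.9 against 14.2 to 32.1, and its call (2.09 ± 0.36, limma adjusted p = 0.000236) was lost without any single day 4 library except GFP-negative replicate 3, with differences of 1.87 to 2.43.

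Several forebrain genes had large differences that missed the call in the fit of all 24 libraries. Fezf1, a zinc-finger repressor of the rostral forebrain, was at 7576, 7449.8 and 6669.9 normalized counts in GFP-positive and 1713, 1967 and 1499 in GFP-negative cells (2.07 ± 0.44, limma adjusted p = 0.00202). Vax1, a homeobox gene of the optic stalk, was at 91 to 115 against 17.1 to 21.4 (2.43 ± 0.64, limma adjusted p = 0.0108). Both genes were separated without overlap, and both were called when the 6 day 4 libraries were fitted alone (adjusted p = 0.000134 and 0.000692), whereas Emx1 was not. Hesx1, a repressor of the anterior neural plate, was at 5949.7, 5061 and 4259.7 against 3102, 2803 and 3045, a smaller difference of 0.76 (limma adjusted p = 0.00817).

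Otx2, the head and forebrain homeobox gene, was at 15192 to 15372 normalized counts in GFP-positive and 11738 to 13890.1 in GFP-negative cells, with a difference of 0.26 that did not pass (limma adjusted p = 0.0735). Sox2, shared by pluripotent and neural progenitor cells, differed by 0.52 (limma adjusted p = 0.0111). Of 20 neural progenitor genes 1 was called higher and 1 lower, where 0.328% and 3.63% of all genes tested were. At an adjusted p under 0.05, 6 were higher and 6 lower, against 4.43% and 11.3% of all genes. The libraries of 12 lay wholly higher and of 8 wholly lower, against 17.8% and 20.5% of all genes. Sox21, a Sox2-related progenitor gene, was at 3806, 3946 and 4191 against 1367, 1483 and 1768 (1.38 ± 0.16, limma adjusted p = 2.69e-06). Fabp7, a fatty acid carrier of radial glia, was the member called lower, at 5.73 to 17.2 against 112 to 158 (-3.63 ± 0.45, limma adjusted p = 4.03e-06). Among 21 regulators of the optic vesicle and cup, 2 were called higher, among them Six6 with the lost calls given above, and 1 lower (Tfap2a), and the pigment epithelium factor Mitf was at 80.6 to 84.6 in GFP-positive and 99.5 to 115 in GFP-negative cells (difference -0.36, limma adjusted p = 0.329).

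**Figure D2:**
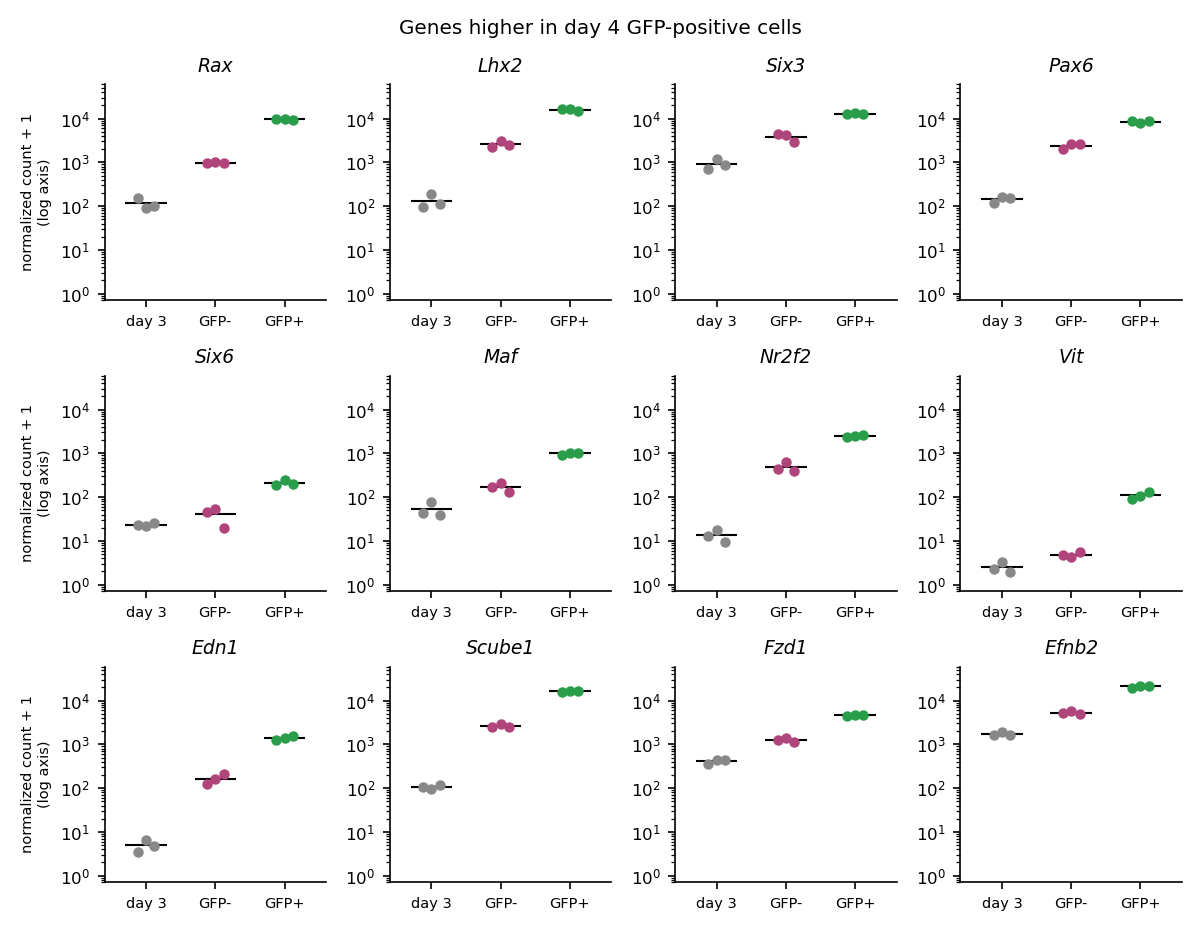
Normalized counts plus 1 in each library (points, logarithmic axis) and their mean (bar) for 12 genes called higher in GFP-positive cells on day 4, with the 3 day 3 libraries (unsorted live cells) for reference. In each panel all 3 GFP-positive points lie above the GFP-negative points, which in turn lie above day 3 for most genes, and Six6 and Vit are the scarcest.

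The largest difference of any gene called higher was that of Vit (vitrin), an extracellular matrix protein, at 89.8, 106 and 129 normalized counts in GFP-positive and 3.66, 3.25 and 4.69 in GFP-negative libraries (4.48 ± 0.34, limma adjusted p = 6.01e-09). Scube1, a secreted and cell-surface glycoprotein, was far more abundant, at 15711, 16703 and 16903 against 2478, 2899 and 2544 (2.64 ± 0.12, limma adjusted p = 4.81e-12). Efnb2 (ephrin-B2), a ligand of Eph receptors, was at 19609, 21712 and 22065 against 5246, 5669 and 5008 (1.99 ± 0.15, limma adjusted p = 7.86e-09). All of these were separated without overlap, and none lost its call when 1 day 4 library was left out.

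Igfbp5, which binds insulin-like growth factors, was at 4544, 4876 and 5669 normalized counts against 902, 800.2 and 1149.6 (2.41 ± 0.25, limma adjusted p = 3.53e-07). Grem1, a secreted BMP antagonist and the only higher call among 34 Nodal and BMP pathway genes, was at 1958, 2241 and 2067 against 415, 476 and 406 (2.27 ± 0.37, limma adjusted p = 0.000123). Edn1, the precursor of the peptide endothelin-1, was at 1223, 1406 and 1576 against 121, 164 and 206 (3.12 ± 0.55, limma adjusted p = 0.000288). The gates did not overlap for Edn1, but its call was lost without any single day 4 library except GFP-negative replicate 3, at differences of 2.92 to 3.30, and it was kept with the 6 day 4 libraries alone.

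Of 16 adhesion genes of neural cells 2 were called higher and none lower, where 0.328% and 3.63% of all genes tested were. At an adjusted p under 0.05, 6 were higher and 2 lower, against 4.43% and 11.3% of all genes. The count of 2 called higher was 1 in each fit that left out a day 4 library, whichever of the 6 it was. Cdh6 (cadherin-6) was at 3074, 3290.4 and 3503 normalized counts against 805, 958 and 1007 (1.84 ± 0.24, limma adjusted p = 1.03e-05). Pcdh17 (protocadherin-17) was at 861, 1064 and 867 against 88, 119 and 78.2, a difference of 3.29 (limma adjusted p = 0.000519) whose call was lost when any 1 of the 6 libraries was left out (3.16 to 3.47), although it held in the 6 libraries alone. Cdh2 (N-cadherin), the cadherin of neural plate cells, differed by 0.71 (limma adjusted p = 0.00608), at 14153 to 15772 against 8153 to 10339. Col1a2, a chain of fibrillar collagen, was at 4354, 4792 and 5161 against 749, 805 and 806 (2.60 ± 0.28, limma adjusted p = 8.16e-07), whereas its partner chain Col1a1 differed by 0.01.

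By absolute amount, the largest rise among called genes was that of the imprinted gene Mest, an endoplasmic reticulum protein of the hydrolase family expressed from the paternal allele. It was at 225485, 239639 and 228527 normalized counts in GFP-positive and 66141, 79197 and 81896 in GFP-negative libraries (1.62 ± 0.17, limma adjusted p = 5.32e-07). Plagl1, an imprinted zinc-finger factor, was at 659.9, 845 and 702 against 179, 152 and 105 (2.36 ± 0.33, limma adjusted p = 1.98e-05). Of 20 imprinted genes 4 were higher and 4 lower at an adjusted p under 0.05, and 12 (60%) had no difference. Over all genes tested 4.43% were higher, 11.3% lower and 84.3% without a difference. Phlda2 was called lower (-1.74, a call lost without GFP-negative replicate 3, over a range of -2.09 to -1.39). H19, a maternally expressed noncoding RNA, was at 4603 to 4947 in GFP-positive and 9067 to 18936 in GFP-negative libraries (-1.41, limma adjusted p = 8.18e-05). Hdac6, a cytoplasmic tubulin deacetylase encoded beside the Ras-like gene Eras on the X chromosome, was at 33965, 36174 and 37955 against 13344, 12848 and 10436 (1.57 ± 0.14, limma adjusted p = 3.77e-08), and Eras was at 4148 to 4606 against 2071 to 2296 (1.02, limma adjusted p = 1.43e-05). The call of Hdac6 was lost without GFP-negative replicate 3, at a difference of 1.46.

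Further transcription factors among the higher genes were Maf, a bZIP factor (929, 1037 and 1023 against 169, 211 and 131, difference 2.57), Sox6, a SoxD factor of neural progenitors (661, 824 and 843 against 125, 136 and 101, difference 2.68), and Arid3c, an AT-rich DNA-binding protein (537, 567 and 601 against 64.4, 90.4 and 73.3, difference 2.90). None of them overlapped between the gates or lost its call when 1 day 4 library was left out.

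Genes called in the same direction that overlap on opposite strands formed 6 pairs among the higher and 9 among the lower calls, the latter including Evx1 with Evx1os and Gata6 with Gata6os. The higher pairs were Rax with Raxos1, Six3 with Six3os1, Pax6 with Pax6os1, Nr2f2 with B130024G19Rik, and Lhx2 with both Gm27197 and Gm13584. Pax6os1 and Gata6os were named after their values were seen. The overlaps of the higher pairs ran from 960 bases for Gm27197 to 4791 bases for Six3os1. Six3os1 was the most abundant noncoding member, at 6719.9, 7461 and 7618 normalized counts in GFP-positive and 1432, 1500.4 and 914 in GFP-negative cells (2.53 ± 0.42, limma adjusted p = 0.000131), and its call was lost without GFP-positive replicate 3 or GFP-negative replicate 3, at differences between 2.31 and 2.66. Whether the counting used the strand is not given in the sources used here, so reads from the members of such a pair may not have been told apart. Raxos1 lies in the locus that the gate was set on and only describes the gate.

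Pluripotency genes were the largest block of lower genes, with 26 of 33 called lower and none higher and a median log2 difference of -3.07. Pou5f1 (Oct4), the POU factor at the centre of the pluripotency network, was at 811, 1005 and 560.0 normalized counts in GFP-positive and 7449.6, 6176 and 7636 in GFP-negative libraries (-3.19 ± 0.18, limma adjusted p = 7.21e-11). Nanog, its homeodomain partner, was at 133, 214 and 129.7 against 2663, 2449 and 2190.2 (-3.96 ± 0.20, limma adjusted p = 1.5e-11). GFP-negative cells on day 4 were thus well above GFP-positive cells in both factors, and Nanog in GFP-negative cells was close to its day 3 mean of 2799. The naive-state genes Zfp42, Esrrb, Klf2 and Klf4 were called lower as well, at 13%, 11.3%, 9.94% and 24% of their GFP-negative means.

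GFP-positive replicate 2 had the highest level of several of these genes within its gate. Dppa5a, a small RNA-binding protein of pluripotent cells, was at 205, 694 and 185 normalized counts there against 3068, 2505 and 3025 in GFP-negative cells (-3.26 ± 0.33, limma adjusted p = 3.38e-07). Tdh, the threonine dehydrogenase of mouse pluripotent cells, was at 52.4, 231 and 52.3 against 1392, 1230.2 and 1102 (-3.83 ± 0.38, limma adjusted p = 2.17e-07). The gates still did not overlap for either gene. Between 24 and 26 of the 33 genes were called when 1 day 4 library was left out, but 7 were when the 6 day 4 libraries were fitted alone.

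At an adjusted p under 0.05, 26 of the 33 pluripotency genes were lower and 2, Eras (1.02) and Sox2 (0.52), were higher. The zinc-finger factor Sall4 was at 11639 to 12314 normalized counts in GFP-positive and 13158 to 15280.3 in GFP-negative libraries (-0.25, limma adjusted p = 0.177), and the RNA-binding protein Lin28a at 47748 to 48908 against 38555 to 47815 (0.21, limma adjusted p = 0.234). Of 13 genes of the primed epiblast that follows the naive state 5 were called lower and none higher, and at an adjusted p under 0.05 8 were lower and 1 higher. Fgf5, the standard marker of that state, was at 248, 284 and 246 against 2989, 2582 and 2674 (-3.40 ± 0.21, limma adjusted p = 2.46e-10). Otx2 and Pou3f1, which both epiblast and neural cells express, showed differences of 0.26 and -0.29 that did not pass.

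Genes of the primitive streak and mesendoderm had the largest median difference of any list examined, -3.75. Of 23 members 18 were called lower and 23 were lower at an adjusted p under 0.05. Eomes, a T-box factor of the streak and endoderm, was at 137, 182 and 311 normalized counts in GFP-positive and 2964, 4243 and 4146 in GFP-negative libraries (-4.23 ± 0.29, limma adjusted p = 2.1e-09). T (brachyury), the T-box factor of nascent mesoderm, was at 98.8, 163 and 172 against 1672, 2414 and 1689 (-3.75 ± 0.29, limma adjusted p = 6.93e-09). Mixl1, a homeobox gene of the streak, was at 11.4, 51.3 and 60.1 against 543, 1088 and 844 (-4.54 ± 0.46, limma adjusted p = 2.56e-07). GFP-positive replicate 1 had the lowest value of each of these genes and of the summed list.

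The summed normalized counts of the 23 genes were 2238, 2551 and 2836 in GFP-positive against 16278, 23341 and 22109 in GFP-negative libraries, that is 12.4% of the GFP-negative mean. The 18 called genes stood at 4.85% to 14.1% of their GFP-negative means, with a median of 7.2%. GFP-negative replicate 1 was the lowest of its group for the sum and for Eomes and Mixl1. With the 6 day 4 libraries alone, 13 of the 23 genes were called.

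Of 28 endoderm genes 14 were called lower and none higher, with a median of -2.0. The transcription factors that define the lineage were among the most reduced. Foxa2 was at 18.9, 40.3 and 38.6 normalized counts in GFP-positive and 509.8, 509 and 463 in GFP-negative cells (-3.95 ± 0.35, limma adjusted p = 4.11e-08), and Sox17 at 19.3, 42.9 and 37.7 against 375, 559 and 598 (-3.95 ± 0.44, limma adjusted p = 1.09e-06). Gata4, used by both embryonic and extra-embryonic endoderm, was at 20.1, 100 and 86.2 against 633, 1142 and 1362 (-4.12 ± 0.45, limma adjusted p = 8.31e-07). Trh, which encodes the precursor of thyrotropin-releasing hormone, was at 463, 626 and 688 against 5252, 5781 and 8184 (-3.43 ± 0.19, limma adjusted p = 6.7e-11). Basement membrane genes of the list were less reduced, with Lama1 at 25.6% and Col4a2 at 34.1% of the GFP-negative mean, and the call of Col4a2 was lost without any single day 4 library except GFP-negative replicate 1 (-1.72 to -1.40). Of the 28 genes 7 were called with the 6 day 4 libraries alone.

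**Figure D3:**
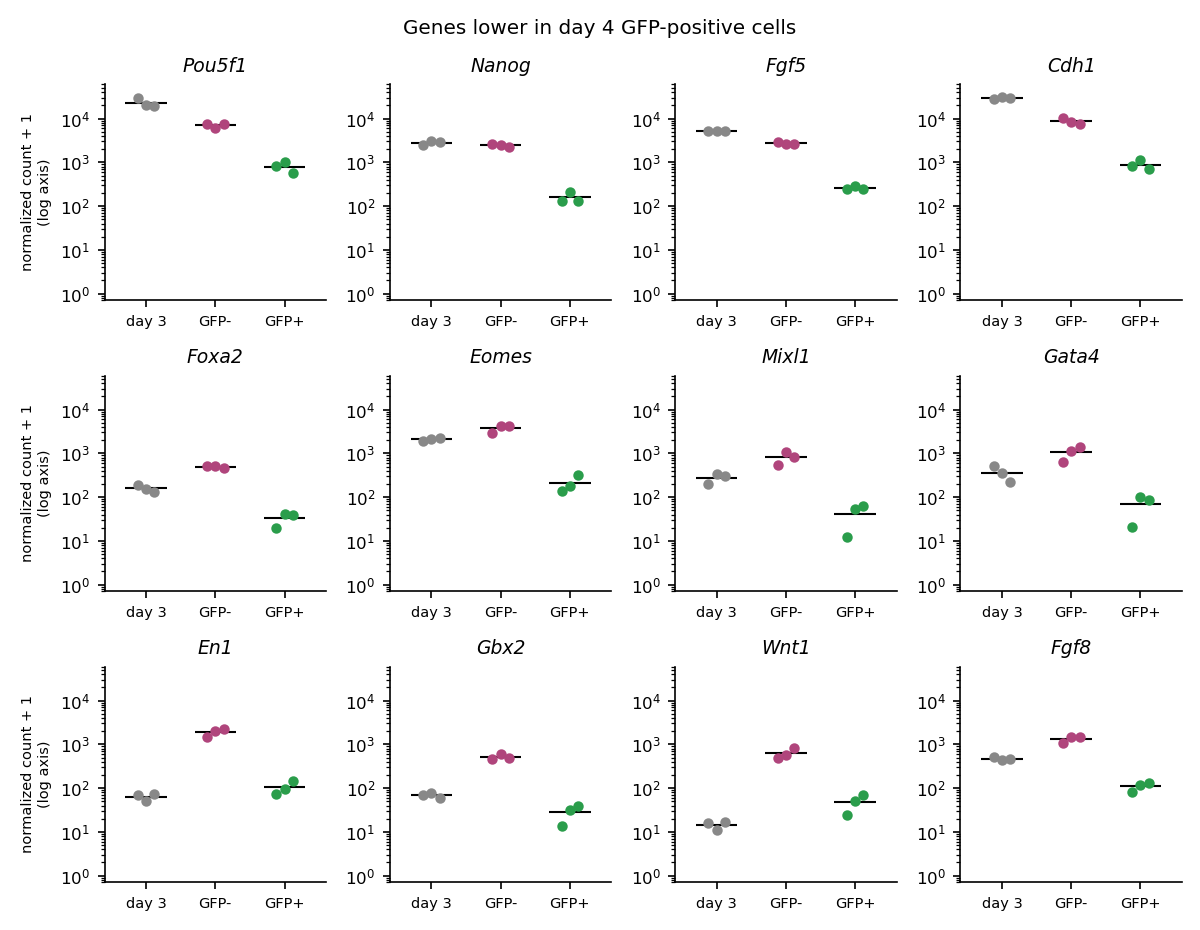
Normalized counts plus 1 in each library (points, logarithmic axis) and their mean (bar) for 12 genes called lower in GFP-positive cells on day 4, with the day 3 libraries for reference. All GFP-positive points lie below all GFP-negative points, but the day 3 mean lies above both gates for Pou5f1, Nanog, Fgf5 and Cdh1, between the gates for Foxa2, Eomes, Mixl1, Gata4, Gbx2 and Fgf8, and below both gates for En1 and Wnt1.

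Markers of other cell types that either gate could hold were lower in GFP-positive cells or did not differ. Of 26 mesoderm and endothelial genes 8 were called lower and none higher. That count was 5 without GFP-positive replicate 1, GFP-positive replicate 3 or GFP-negative replicate 2 and 4 without GFP-negative replicate 3. Their summed level was 1554 to 1894 normalized counts in GFP-positive and 4129 to 8075 in GFP-negative libraries. Kdr, a VEGF receptor of early mesoderm, was at 45.1, 100.2 and 157 against 519, 1074 and 1401 (-3.35 ± 0.41, limma adjusted p = 3.37e-06). The blood and vessel genes Tal1 and Cdh5 were scarce in both gates, at 7.44 to 18.8 and 2.58 to 11 in GFP-positive and 29.4 to 49.7 and 19.2 to 32.8 in GFP-negative libraries, and neither was called, although Tal1 was without GFP-positive replicate 2 (-2.04 to -1.43 over the fits that left out 1 library). Of 21 surface ectoderm and placode genes 9 were called lower (5, 5, 5 and 4 without the same 4 libraries in turn), with sums of 6841 to 7216 against 10361 to 14874, while its defining keratins Krt8 and Krt18 differed by -0.80 and -0.58 and did not pass (limma adjusted p = 0.174 and 0.337).

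Of 18 neural crest genes 7 were called lower, with sums of 3369 to 3909 against 6611 to 9646, and the crest factor Sox10 differed by -0.66 (limma adjusted p = 0.332). Of 14 germ cell genes 4 were called lower and of 9 trophoblast genes 5 were, 3 of which (Cdx2, Eomes and Tfap2c) also belong to the streak, posterior or ectoderm lists. The summed trophoblast list was at 268 to 573 normalized counts in GFP-positive and 4107 to 7251 in GFP-negative libraries. None of these lists of mesoderm, surface ectoderm, crest, germ cell and trophoblast genes held a gene called higher in GFP-positive cells. With the 6 day 4 libraries alone, 4 mesoderm, 3 surface ectoderm, 4 crest, 2 germ cell and 3 trophoblast genes were called lower. These markers moved with the gate, and their part in the other differences was not tested.

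Of 29 regulators of the midbrain, hindbrain and spinal cord, which are neural genes, 20 were called lower and none higher, with a median of -3.11. Leaving out 1 day 4 library gave 13 to 18 lower calls, the lowest without GFP-positive replicate 1. En1, a homeobox gene of the midbrain-hindbrain border, was at 71.6, 92.5 and 144 normalized counts in GFP-positive and 1469, 1967 and 2271 in GFP-negative libraries (-4.23 ± 0.32, limma adjusted p = 6.93e-09). Gbx2, which sets the hindbrain side of that border, was at 12.8, 30.8 and 38.5 against 467, 604 and 488 (-4.32 ± 0.29, limma adjusted p = 1.01e-09). Irx3, a homeobox gene of the caudal neural plate, was at 91.7, 115 and 92.9 against 849, 917 and 1269 (-3.31 ± 0.26, limma adjusted p = 8.91e-09). None of these overlapped between the gates or lost its call without 1 library.

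More posterior genes showed the same direction. Cdx2, a caudal homeobox gene, was at 15.9, 27.5 and 39.5 normalized counts against 299, 610.2 and 739 (-4.25 ± 0.45, limma adjusted p = 5.97e-07), and Hoxb1 at 13.4, 8.97 and 31.3 against 177, 334 and 399.5 (-4.11 ± 0.63, limma adjusted p = 6.01e-05). Hoxb3 had the most negative difference of all called genes, at 0, 2.08 and 16.3 against 119, 166 and 133 (-5.21 ± 0.95, limma adjusted p = 0.000393), but its call was lost without any single day 4 library except GFP-positive replicate 3, at -6.31 to -4.25. Pax2, a gene of both the midbrain-hindbrain border and the optic stalk, went the other way at 3163 to 3426 in GFP-positive and 1628 to 2007 in GFP-negative libraries, and did not pass (0.90, limma adjusted p = 0.122). With the 6 day 4 libraries alone, 11 of the 29 genes were called lower.

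Wnt pathway genes held calls in both directions. Several members of this and the following signalling lists also belong to the streak, pluripotency or posterior lists above. Of 28 ligands and receptors 9 were called lower and 3 higher, and 3 and 3 with the 6 day 4 libraries alone. The ligands Wnt8a, Wnt3, Wnt3a and Wnt1, which act in the streak and the posterior neural plate, were at 5.49%, 6.48%, 8.09% and 7.38% of their GFP-negative means. Wnt1 was at 22.7, 49.5 and 67 normalized counts in GFP-positive and 491, 578 and 818 in GFP-negative libraries (-3.83 ± 0.65, limma adjusted p = 0.000187), and its call was lost without GFP-positive replicate 1, GFP-negative replicate 2 or GFP-negative replicate 3 (-4.15 to -3.39). The higher members were the receptors Fzd1 and Fzd4 and the ligand Wnt5b, whose difference of 1.56 lost its call without GFP-negative replicate 1 (1.44 to 1.73).

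Fzd1 was at 4449, 4696 and 4675 normalized counts in GFP-positive and 1234, 1371 and 1155 in GFP-negative cells (1.88 ± 0.25, limma adjusted p = 9.89e-06), and Fzd4 at 4232, 4699 and 5269 against 1514, 1691 and 1382 (1.63 ± 0.14, limma adjusted p = 4.85e-08). Fzd5, a frizzled receptor of the eye field, was more abundant at 17607 to 19862 against 5975 to 9699.7, with a difference of 1.27 that passed on p but not on size (limma adjusted p = 0.000405). Fzd10 differed the other way, at 40.9, 66.9 and 97 against 827, 1163 and 1177 (-4.0 ± 0.23, limma adjusted p = 9.32e-11). The frizzled family thus held called genes in both directions.

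Of 25 Wnt antagonists and feedback targets 3 were called lower and 1 higher, and 10 were lower and 3 higher at an adjusted p under 0.05. Axin2, a feedback target of the pathway, was at 1081, 1206 and 1615 normalized counts against 3509.6, 4125 and 4693 (-1.67 ± 0.21, limma adjusted p = 4.46e-06), and Sp5, another direct target, at 113, 120.0 and 189.8 against 1446, 2135 and 2267 (-3.79 ± 0.44, limma adjusted p = 1.87e-06). Shisa2, which holds back the maturation of frizzled and FGF receptors, was at 25195, 25136 and 25129 against 9195, 8196 and 8490.1 (1.55 ± 0.20, limma adjusted p = 5.6e-06). The secreted antagonist Sfrp1 was at 17069.8 to 18788 against 8579 to 8804, a difference of 1.06 (limma adjusted p = 2.91e-08). With quantile normalization, Shisa2 was no longer called.

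Of 25 FGF signalling genes 9 were called lower and none higher, and at an adjusted p under 0.05 16 were lower and 1 higher. The ligand Fgf8 was at 78.4, 114 and 131 normalized counts in GFP-positive and 1075, 1444 and 1476 in GFP-negative libraries (-3.63 ± 0.30, limma adjusted p = 2.09e-08). The feedback genes that follow FGF and ERK activity included Etv5, at 450.4, 858 and 607 against 4908, 5102 and 4859 (-3.00 ± 0.22, limma adjusted p = 4.05e-09), and Dusp6, at 509, 607 and 631 against 2187, 2322 and 1553 (-1.78 ± 0.15, limma adjusted p = 1.55e-08). The receptors Fgfr1 and Fgfr2 differed by 0.12 and 0.21 and did not pass. Of these 25 genes 7 were called with the 6 day 4 libraries alone.

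Of 34 Nodal and BMP pathway genes 11 were called lower, and 5 with the 6 day 4 libraries alone. Nodal itself was at 19.3, 47.6 and 23.2 normalized counts against 355, 420.2 and 443 (-3.82 ± 0.29, limma adjusted p = 5.33e-09), and its co-receptor Tdgf1 (Cripto) at 75.5, 280.1 and 188 against 2579.9, 3178 and 3169 (-4.21 ± 0.39, limma adjusted p = 1.02e-07). The Nodal inhibitors Lefty1, Lefty2 and Cer1, which are also targets of the pathway, were called lower at 20.7%, 9.71% and 7.43% of the GFP-negative means. Bmp4 was at 217 to 308 against 483 to 779 (-1.24, limma adjusted p = 0.000123), below the fold threshold. In the retinoic acid pathway the degrading enzyme Cyp26a1 was at 55.8, 87.9 and 138 against 908, 1695 and 1546 (-3.91 ± 0.54, limma adjusted p = 1.55e-05). The streak list also holds Nodal, Cer1, Cyp26a1, Fgf8, Sp5, Wnt3, Wnt3a, Wnt8a and the endoderm gene Foxa2. Tdgf1, Lefty1 and Lefty2 are also in the pluripotency list, and Wnt1 and Fgf8 in the midbrain and posterior list. The counts of these lists are therefore not independent.

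Of 26 epithelial junction genes 12 were called lower and none higher. Cdh1 (E-cadherin), the cadherin of pluripotent and epithelial cells, had 822, 1121 and 704 normalized counts in GFP-positive and 10202, 8394 and 7499 in GFP-negative libraries (-3.32 ± 0.29, limma adjusted p = 3.68e-08). Epcam, an epithelial adhesion molecule, was at 556, 652 and 544 against 4013, 3397 and 3561 (-2.65 ± 0.12, limma adjusted p = 4.81e-12). The claudins Cldn3, Cldn4, Cldn6 and Cldn7, which seal tight junctions, were at 19.9%, 6.89%, 10.3% and 14.6% of their GFP-negative means. The scaffold Tjp1, used by neural and other epithelia alike, differed by 0.04. With the 6 day 4 libraries alone, 9 of the 26 genes were called.

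Of 31 cell cycle genes 27 (87.1%) had no difference at an adjusted p under 0.05, close to the 84.3% of all genes tested, and the median was 0.08, with Mki67 at 19691 to 21588 normalized counts in GFP-positive and 16970.2 to 18858 in GFP-negative cells. The exception called was Cdkn2a, a cell cycle inhibitor of the INK4 locus, at 3.41 to 13 against 43.7 to 52.7 (-2.50, limma adjusted p = 0.000107), and its call was lost without GFP-positive replicate 3 (-2.85 to -2.02 over the fits that left out 1 library). None of 23 cholesterol synthesis genes, 13 mitochondrially encoded genes or 12 timing genes was called, where 0.328% of all genes were called higher and 3.63% lower. At an adjusted p under 0.05 with limma, 1 cholesterol gene, 1 mitochondrial gene and 2 timing genes differed. Of 20 apoptosis and p53 genes only Pmaip1 (Noxa), a promoter of cell death, was called, at 373, 390.2 and 366 against 2352, 2171 and 2319 (-2.60 ± 0.16, limma adjusted p = 2.46e-10).

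Glycolysis and hypoxia genes with a call were Ndrg1, a hypoxia-induced gene (-2.14, limma adjusted p = 1.61e-06), Pdk1, a kinase that restrains pyruvate oxidation (1364, 1376 and 1509 against 4773, 3988 and 4511, -1.64 ± 0.08, limma adjusted p = 1.79e-11), and Ldhb, a lactate dehydrogenase subunit (2726 to 3356 against 8192 to 9704, -1.56). The call of Ldhb was lost without GFP-positive replicate 3 or GFP-negative replicate 1, at -1.63 to -1.48. Among 22 immediate-early and stress genes, which can respond to dissociation and sorting, only Zfp36 was called (-2.02), while 6 were lower and none higher at an adjusted p under 0.05 (11.3% lower over all genes), among them Klf6 (-1.25) and Myc (-0.74). The genes Fos, Jun and Egr1 had differences of 0.51, 0.04 and -0.26 that did not pass.

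**Figure D4:**
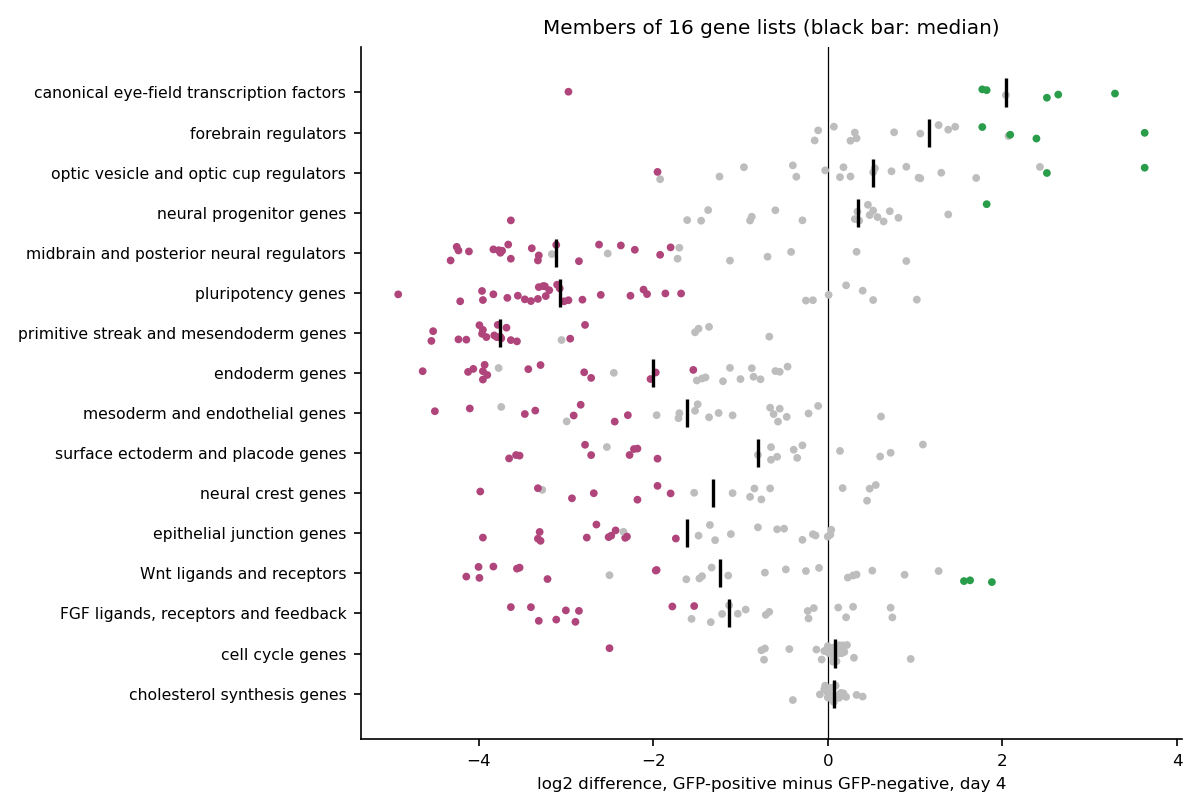
Each point is a member of 1 of 16 gene lists, placed by its log2 difference between the day 4 gates (GFP-positive minus GFP-negative), in green where it was called higher, magenta where called lower and grey otherwise. The black bars mark the list medians, which run from 2.04 for the eye-field factors, Rax included, to -3.75 for the streak genes and lie at 0.08 and 0.07 for cell cycle and cholesterol genes.

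The level of each called gene in the unsorted cells of day 3 gives a reference for the gates and is described here without a test. For 526 of the 763 lower genes the day 3 mean was above that of both day 4 gates, for 200 it lay between them and for 37 it was below both. The lists differed in this order. Of the 26 pluripotency genes called lower, 22 had been higher on day 3 than in either gate, as had 12 of the 12 epithelial junction genes and 5 of the 5 primed epiblast genes. Of the 18 streak genes 16 had a day 3 level between the gates, and of the 20 midbrain and posterior genes 9 lay between and 8 below both.

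Pou5f1, for example, averaged 23213 normalized counts on day 3, 7087 in GFP-negative and 792 in GFP-positive cells of day 4. T averaged 505, 1925 and 145 in the same order, and En1 63.1, 1902 and 103. The GFP-negative cells were therefore below day 3 for the first gene and above it for the other two, while the GFP-positive cells were the lowest of the 3 groups for Pou5f1 and T. Of the 69 higher genes 65 had a day 3 mean below both gates and 4 a mean between them. Lhx2 averaged 130.5 on day 3, 2577 in GFP-negative and 15995 in GFP-positive cells. Scube1 averaged 107, 2640.4 and 16439.

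Promoter windows from RefSeq (GRCm38.p6), the 250 bases before each start site, were found for 50 of the 67 distinct symbols called higher and 534 of the 756 called lower. They were searched on both strands for TAATTA, a core bound by paired-type homeodomain proteins such as those of the Rax family, and for ATGCAAAT, the octamer bound by POU factors such as Oct4. TAATTA was in 2 (4%) of the windows of higher genes, 27 (5.06%) of those of lower genes and 520 (3.72%) of 13997 over all genes tested. The octamer was in 2 (4%), 19 (3.56%) and 223 (1.59%). A match describes letters in a window and is not evidence of binding, and neither motif was in the windows of Lhx2, Six3, Six6, Pax6, Pou5f1 or Nanog. The windows of 3 of the most strongly reduced genes that hold a match are shown to place it, with the match in capitals. They are the caudal gene Cdx2 (chr5:147307250-147307499, minus strand) and the streak gene Evx1 (chr6:52313248-52313497, plus strand) with the octamer, in Evx1 as its reverse complement, and the Nodal co-receptor gene Tdgf1 (chr9:110946159-110946408, minus strand) with TAATTA, each written 5′ to 3′ on the strand of the gene.
Cdx2: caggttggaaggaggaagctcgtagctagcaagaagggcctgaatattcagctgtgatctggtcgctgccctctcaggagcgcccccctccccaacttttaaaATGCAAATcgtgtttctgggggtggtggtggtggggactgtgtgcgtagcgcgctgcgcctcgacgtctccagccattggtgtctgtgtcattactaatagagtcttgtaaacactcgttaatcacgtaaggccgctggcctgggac
Evx1: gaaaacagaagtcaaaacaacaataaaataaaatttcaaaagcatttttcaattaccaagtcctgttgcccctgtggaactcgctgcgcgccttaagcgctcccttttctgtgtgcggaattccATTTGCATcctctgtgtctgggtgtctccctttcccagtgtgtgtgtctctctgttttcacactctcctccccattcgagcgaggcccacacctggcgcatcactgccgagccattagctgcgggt
Tdgf1: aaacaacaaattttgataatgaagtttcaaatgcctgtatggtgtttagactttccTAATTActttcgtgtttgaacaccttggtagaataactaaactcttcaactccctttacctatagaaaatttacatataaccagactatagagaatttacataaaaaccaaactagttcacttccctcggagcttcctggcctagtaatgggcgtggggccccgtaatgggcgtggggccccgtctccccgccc
Evx1 was at 13, 36 and 66.6 normalized counts in GFP-positive and 472, 801 and 1111 in GFP-negative libraries (-4.52 ± 0.48, limma adjusted p = 5.71e-07).

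The gates of day 5, which share no library with those of day 4, were used to ask how far the difference carried over. On day 5, 84 genes (0.4%) were called higher and 968 (4.61%) lower. Of the genes called on day 4, 25 higher and 560 lower genes were called in the same direction on day 5, which is 36.2% and 73.4% of the day 4 calls and 29.8% and 57.9% of the day 5 calls. Both sides kept their sign for most genes, with 4 higher and 5 lower genes of the opposite sign on day 5. The median day 5 difference of the day 4 calls was 1.46 for the higher and -2.50 for the lower genes.

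**Figure D5:**
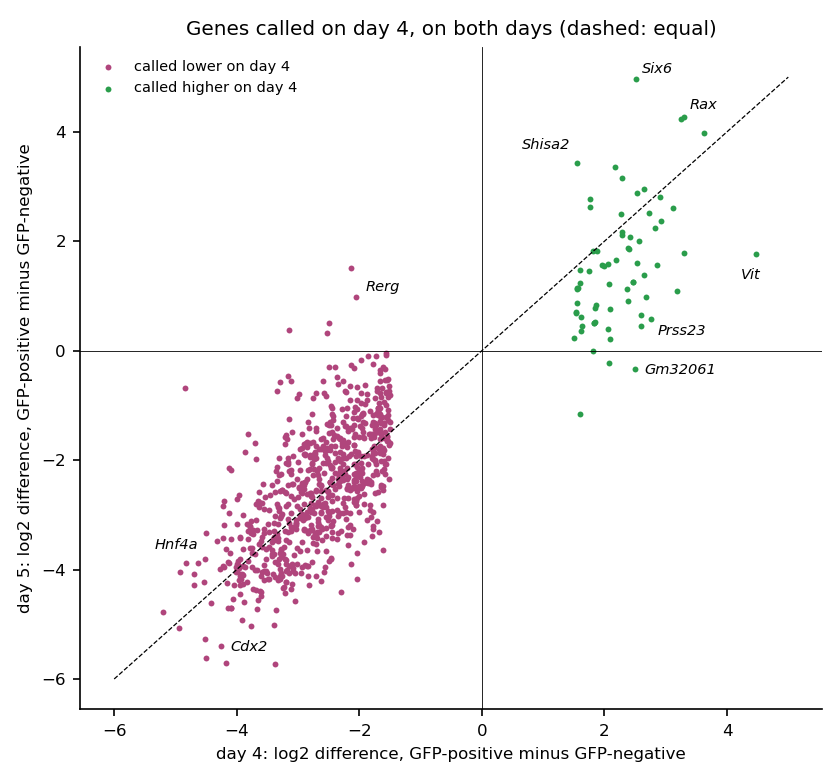
Each point is a gene called on day 4, with its log2 difference between the gates on day 4 on the horizontal and on day 5 on the vertical axis, and the dashed line marks equal differences. Most of the 763 lower genes (magenta) stay far below 0 on both days, while of the 69 higher genes (green) several, among them Prss23 and Gm32061, lie near 0 on day 5.

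The day 5 values of some day 4 calls are given beside the test of the change between days. Prss23, a serine protease, had day 4 means of 1282 normalized counts (GFP-positive) and 189 (GFP-negative) and day 5 means of 763 and 507. Its day 4 call was lost when any 1 of the 6 libraries was left out (2.69 to 2.79). Col1a2 had means of 4769 and 787 on day 4 and 2931 and 1841 on day 5, and Cdh6 of 3289 and 923, then 2959.7 and 2059.6. The day 5 differences of these 3 genes were 0.58, 0.66 and 0.52 and did not pass. Their changes between days were not called either (limma interaction, adjusted p = 0.223 for Prss23, 0.0161 for Col1a2 and 0.0725 for Cdh6). Six6 had means of 211 and 39.4 on day 4 and 5549.7 and 178 on day 5, a change of 2.46 ± 0.64 that was not called (limma interaction, adjusted p = 0.0725). Shisa2 had means of 25153 and 8627, then 25931 and 2394, and its change was called.

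An interaction term tested the change of the gate difference from day 4 to day 5 and called 16 rises (0.0762%) and 7 falls (0.0333%) over all genes tested. These counts were 3 to 7 rises and 5 to 7 falls when 1 sorted library was left out, and 26 and 25 without day 0 replicate 1. Among the day 4 calls it named 1 higher gene, Shisa2 (day 5 minus day 4, 1.89), and 8 lower genes, among them Ldhb (1.51). The means of Ldhb were 3046 (GFP-positive) and 8964 (GFP-negative) on day 4 and 3754 and 3868 on day 5. The interaction calls of Shisa2 and Ldhb were lost in each of 12 fits that left out 1 sorted library.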

How the data were processed

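RNA from sorted live single cells was sequenced as TruSeq libraries. The authors quantified reads with kallisto 0.43.1 against Ensembl mouse transcripts (mm10) and deposited 1 signal value per gene and library, an estimated count divided by a DESeq2 size factor. The deposited table also holds the authors' own calls, which were not used. Between 56.9% and 74.3% of low values were whole multiples of 1 read (tolerance 0.1), and count models were therefore left out.

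From these values log2(value + 1) was fitted with limma 3.58.1 (R 4.3.3, empirical Bayes with trend, Benjamini-Hochberg) over all 24 libraries, for 21005 of 49705 entries that reached 10 in at least 3 libraries. Genes were called at an adjusted p under 0.001 where they differed by more than 1.5 on the log2 scale. Tables and figures were made with Python 3.11.15. In data simulated for the day 4 comparison over 21005 genes, 90 of 100 planted log2 differences of 2 and 99 of 100 of 3 were called. The planted genes all had a GFP-negative level above about 100 normalized counts, and the simulated noise was normal on the log2 scale. Recovery among scarcer genes was not simulated.

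Members and gene lists were chosen with earlier results of these data known. Genes named are list members, the 25 largest called differences and the 15 largest differences of mean count in each direction, and the 10 largest changes between days in each direction. A few genes that this rule names are not reported here. Total normalized counts were 42359014 to 45695739 per day 4 library, but the scaling removes differences in depth from them. The worth of 1 read, estimated from the low values, ran from 0.81 normalized counts in GFP-negative replicate 2 to 1.17 in GFP-negative replicate 3. It was 1.14 in GFP-positive replicate 1, and a higher worth means fewer reads. No 2 day 4 libraries held identical values. The alternatives were other pseudocounts, filters, scalings, thresholds, sets of libraries, a replicate block, and leaving out each sorted library.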

Additional observations from a re-analysis of the deposited data

Results flagged for a closer look

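The gate difference changed between day 4 and day 5 by the test of the change itself (limma interaction, adjusted p under 0.001), for the 16 genes given here with the day 5 minus the day 4 log2 difference. They are among the largest changes, and smaller ones such as those of Shisa2 and Ldhb also passed. Of the 16, all but Fam83f, Vax2os, Ripply1 and Rerg were uncalled on day 4.

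The difference moved towards GFP-positive cells for Tbx2 (4.93), a T-box factor of the dorsal optic vesicle, for Cyp4v3 (4.09), for Vax2os (3.66), for Fam83f (3.51), for Rerg (3.04), for Ripply1 (2.99), for Aldh1a3 (2.87), a retinoic acid synthesis enzyme, for Mitf (2.61), the pigment epithelium factor, and for B3gat2 (2.51). Tbx2 had mean normalized counts of 13.4 (GFP-positive) and 55.9 (GFP-negative) on day 4, and 530.2 and 68.2 on day 5. Mitf averaged 83 and 107 on day 4, and 685 and 144 on day 5. The calls of Rerg and Mitf were kept in all 12 fits that left out 1 sorted library, that of Tbx2 in 9, and those of the other 6 in 4 or fewer, with Cyp4v3 in 0.

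It moved towards GFP-negative cells for Sox18 (-4.06) and Tie1 (-3.43), genes of endothelial cells, for Prdm1 (-3.32), for Sox21 (-2.17), for Chst15 (-2.05), for Scube2 (-1.67) and for Rasip1 (-1.65). Sox18 averaged 8.7 and 9.27 on day 4, and 4.6 and 93.5 on day 5. Sox21 averaged 3981 and 1539 on day 4, and 2349.6 and 4074 on day 5, so its gates changed order. The first 5 of these calls were kept in all 12 fits, Rasip1 in 1 and Scube2 in 0. The cause of these changes was not tested.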

How the results depend on the processing

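No named gene reversed its day 4 direction in the fits where it was recomputed, which leave out the looser threshold and the day 5 libraries and, for the filter of 50, cover the genes that passed it. Several counts moved. Fitting only the compared libraries gave 220 lower calls in place of 763, 1574 genes higher at an adjusted p under 0.05 in place of 930, and 20 falls of the gate difference between days in place of 7. In that fit 99 named genes lost their call. Among genes at an adjusted p under 0.05, 28.2% were higher in the fit of all libraries, 38.7% after quantile normalization and 39.2% with the compared libraries alone. Requiring the fold inside the test (limma treat) left 9 higher and 266 lower calls, 4 higher and 183 lower calls on both days, and 0 rises and 0 falls. An adjusted p under 0.01 with an absolute log2 above 1 gave 218 and 1339, with 74 and 994 on both days, 40 rises and 47 falls. Leaving out day 0 replicate 1 gave 1695 genes higher at an adjusted p under 0.05, 26 rises and 25 falls. Quantile normalization left 350 lower calls on both days and moved the median of all genes from 0.01 to 0.06. The 16 rises became 8 with no filter on low values and 10 without the variance trend, and the 7 falls became 15 with a pseudocount of 5. Leaving out 1 day 4 library gave 50 to 56 higher and 607 to 708 lower calls and 581 to 727 genes higher at an adjusted p under 0.05, and leaving out 1 day 4 or day 5 library gave 3 to 7 rises. The cause of these shifts was not tested. Same-numbered GFP-positive and GFP-negative libraries deviated with correlations of -0.108, 0.0227 and -0.101, so they showed no shared deviation. These values cannot tell whether same-numbered samples were sorted from the same organoids. A replicate block gave 67 higher and 731 lower calls and 10 rises. Count models were not run. Genes near the filter of 10 normalized counts are limited by depth.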

Other observations

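Guidance genes held calls in both directions, with 1 of 32 higher (Efnb2) and 5 lower, the latter 3 without GFP-positive replicate 1, GFP-negative replicate 2 or GFP-negative replicate 3. Over all genes tested 0.328% were called higher and 3.63% lower. The receptor Epha1 was at 299.8, 356 and 329 normalized counts in GFP-positive and 2852, 3248 and 2805 in GFP-negative libraries (-3.17 ± 0.16, limma adjusted p = 1.73e-11), and Epha2 at 127, 145 and 137 against 1034, 1009 and 750.4 (-2.75 ± 0.20, limma adjusted p = 4.55e-09). Of 14 DNA methylation and germline silencing genes 4 were called lower. Dnmt3l, a cofactor of de novo DNA methylation, was at 265, 422 and 264 against 1413, 1271 and 1156 (-2.04 ± 0.18, limma adjusted p = 4.48e-08). Dnmt3b, the methyltransferase itself, was at 14395 to 16196 against 34664 to 43398 and was not called (-1.31, limma adjusted p = 0.00271).

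Of 21 proneural and neuronal genes 4 were called lower and none higher, among them Neurod1 at 9.09, 13.7 and 9.45 against 91.5, 66.6 and 48.1 (-2.54 ± 0.25, limma adjusted p = 2.07e-07). Of 19 Notch pathway genes 16 (84.2%) showed no difference at an adjusted p under 0.05, near the 84.3% of all genes tested, and Dll3 was called lower (-1.72). Of 17 Hedgehog pathway genes 2 were called lower, and 1 was without any single day 4 library except GFP-negative replicate 1, and Shh was at 2.27 to 4.58 against 15.6 to 19.9 and was not called (limma adjusted p = 0.0128). Of 15 hypothalamic and ventral forebrain genes the 2 called higher were Rax and Six3, which other lists also hold. Of 18 retinoic acid genes 4 were called lower. Of 29 extracellular matrix genes 4 were called lower and 1 higher, and the lower count was 2 without any single day 4 library except GFP-negative replicate 1. Of 19 splicing regulators 3 were higher and 2 lower at an adjusted p under 0.05 in limma, against 4.43% and 11.3% of all genes tested. None was called at the stricter thresholds. For the counts of called genes in this paragraph, the shares over all genes tested were 0.328% higher and 3.63% lower.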
